A study of Mus musculus with 8 samples.

Results

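The HOX cluster genes comprised the 39 protein-coding genes of the RefSeq mouse gene table (GRCm38.p6) whose symbols are Hox, a letter from a to d and a number, out of 21521 protein-coding genes on chromosomes 1 to 19 and X. The genes were picked by symbol alone, but the family was taken up with earlier results of these data known. The protein whose binding was measured, RelA (p65), is an NF-kB subunit that activates transcription. The assay was ChIP-seq, which sequences the DNA recovered with an antibody to RelA, and the cells were primary embryonic fibroblasts of the C57BL/6 strain, wild-type in genotype and starved of serum overnight. ChIP libraries were made with 2 replicates each at 0, 0.5 and 3 h of TNF at 10 ng/ml, and 2 libraries of input DNA, whose time is not labelled, brought the total to 8. The measurement was 1 list of 9829 peaks of RelA with their mm10 positions, of which 9823 lay on these chromosomes. The list held no height and no sample, so the times and replicates could not be compared, depth was unknown, and no fibroblast marker or Hox transcript level was measured. The embryonic stage and the body region of the fibroblasts are not given in the labels.

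Hox genes encode homeodomain transcription factors that give cells their position along the head-to-tail axis and, for the high-numbered genes, along the limb. Mammals carry them in clusters on separate chromosomes, and the number in the symbol marks the paralogue group, which follows the order along the cluster. Low-numbered genes act towards the head and high-numbered genes towards the tail. Fibroblasts are known to keep a Hox pattern that reflects their site of origin, and Polycomb proteins keep the unused stretches of a cluster silent.

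RelA peaks lay inside all 4 clusters, 8 peak centres in 492 kb of sequence counted from the outermost Hox gene end to the other (Poisson 95% interval of the count 3.45 to 15.8). HoxC on chromosome 15 (102921131 to 103036856) held 4 peaks and HoxA on chromosome 6 held 2. HoxB on chromosome 11 (96194316 to 96368254) and HoxD on chromosome 2 (74668225 to 74765142) held 1 each. This corresponds to 16.3 peaks per Mb over the 4 clusters (95% interval 7.02 to 32.0), against 3.82 per Mb over the gene-bearing span of all chromosomes. In the surroundings of the clusters, 50 to 500 kb outside them, the density was 6.67 per Mb. By cluster the density was 34.6 per Mb in HoxC, 18.95 in HoxA, 10.3 in HoxD and 5.75 in HoxB, beside 4.54, 3.59, 4.27 and 5.35 per Mb on their own chromosomes. The intervals of the single clusters were wide, from 9.42 to 88.5 per Mb in HoxC and from 0.146 to 32.0 in HoxB, so the clusters could not be ranked from these counts. All intervals given here cover counting error only.

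**Figure D1:**
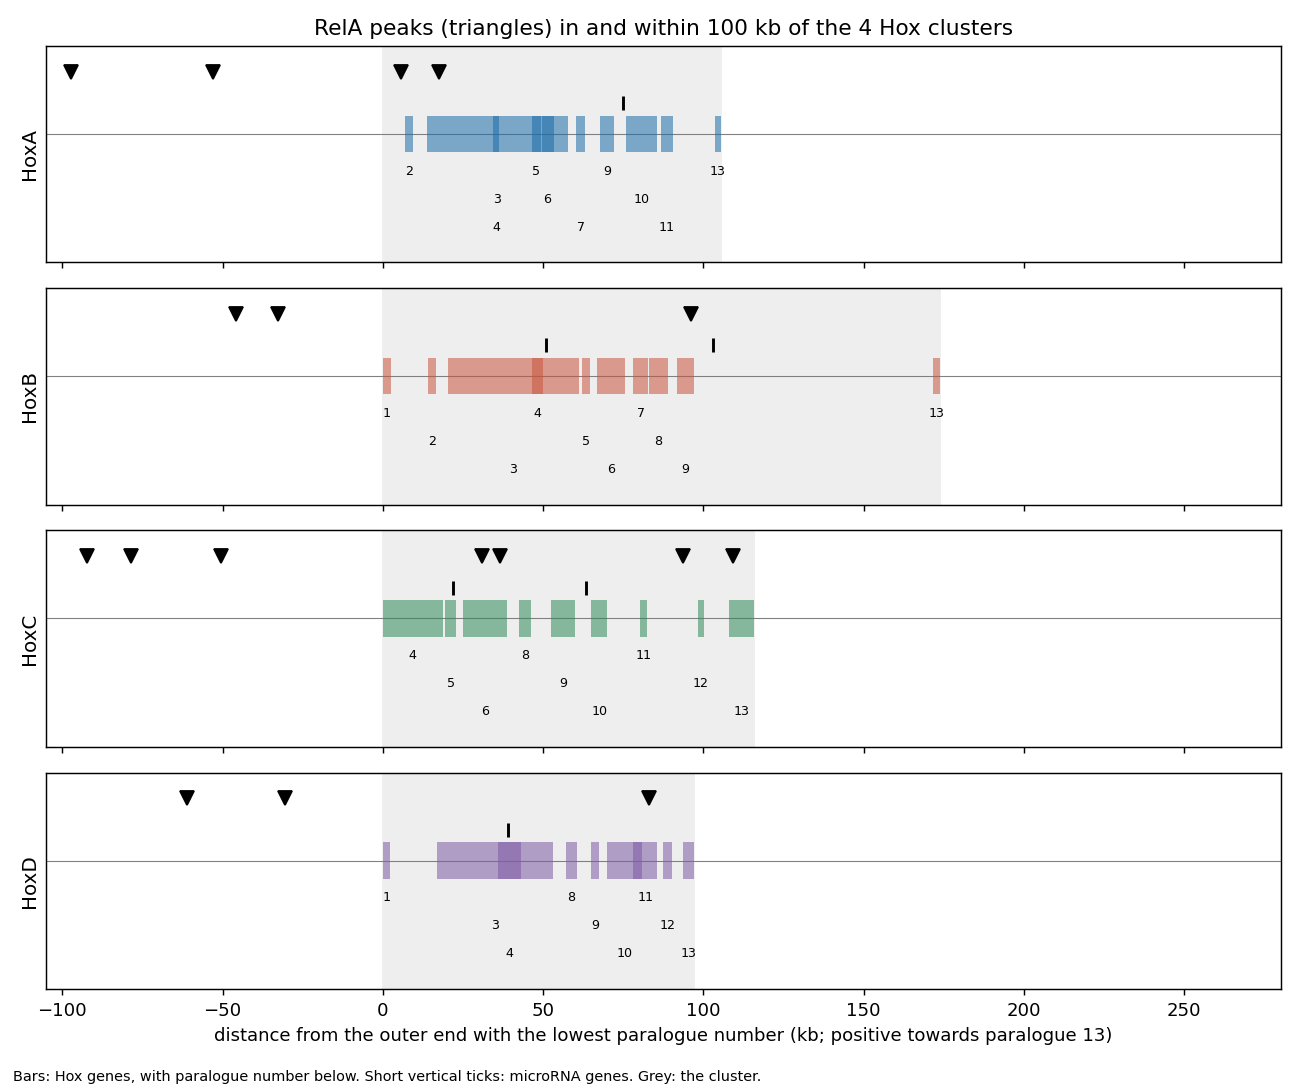
Position of RelA peak centres (triangles) in and around the HoxA, HoxB, HoxC and HoxD clusters, plotted as kb from the outer end with the lowest paralogue number. Bars are Hox genes with their paralogue number, short ticks are microRNA genes and grey marks the cluster (1 gene is not drawn). The 8 peaks inside the clusters lie at the low-numbered end of HoxA, at Hoxb9, at 2 places in HoxC and at Hoxd11.

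Because Hox genes are short and crowded, whole stretches of neighbouring genes were also used for comparison. Among 2433 runs of 9 consecutive protein-coding genes that held no Hox gene and spanned no more than the longest Hox cluster, 50.9% held at least 1 peak centre, 23.4% held 2 or more and 2.96% held 4 or more. Their density was 6.78 peaks per Mb. All 4 Hox clusters held at least 1 peak, and 2 of the 4 held 2 or more. HoxC, the highest of the 4 clusters with 4 peaks, stood among the highest few percent of such runs. As the highest of 4, its place among the runs cannot be read as that of a single cluster. Overlapping runs share genes, and no test was made on them.

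**Figure D2:**
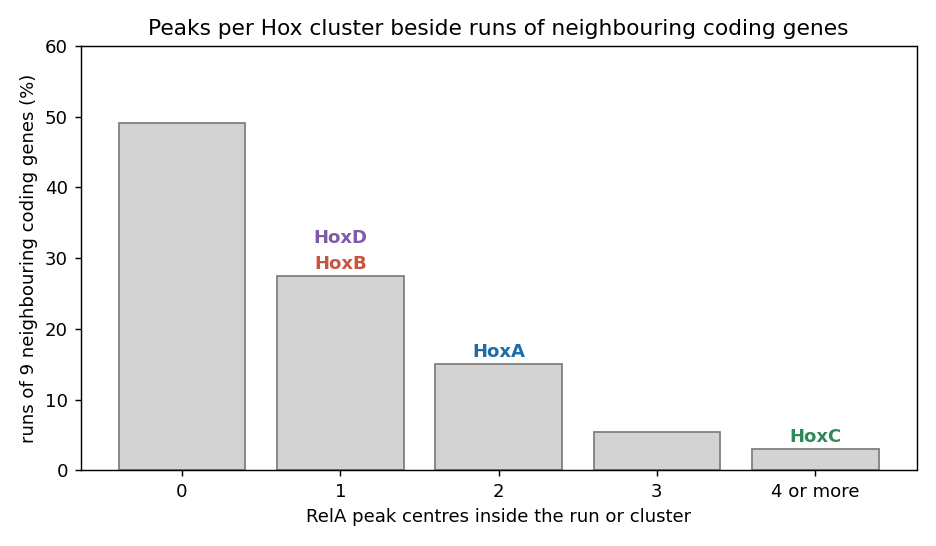
Share (%) of runs of 9 neighbouring protein-coding genes by the number of RelA peak centres inside them, with each Hox cluster named above the bar of its own count. HoxB and HoxD stand at 1 peak, HoxA at 2 and HoxC at 4, where 2.96% of runs had 4 or more.

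Counted by gene, 13 of the 39 Hox genes (33.3%, Wilson 95% interval 20.6 to 49.0%) had the centre of a peak at most 10 kb from an end of the gene, beside 17.1% of all protein-coding genes. Among the 12448 other protein-coding genes whose length (1784 to 44009 bp) and number of neighbours within 50 kb (1 to 10) lay in the range of the Hox genes, 18.1% had a peak nearby (Wilson 95% interval 17.4 to 18.8%). These ranges are broad: the median Hox gene was 3737 bp long with 7 neighbours, and the median gene of the comparison was 13370 bp long with 3. Within the 10th to 90th percentile of length and neighbours, 11 of 27 Hox genes and 18.7% of 2983 other genes were near a peak. The 13 genes shared 8 peaks, so they are not independent of each other and the interval around their share is too narrow. The nearest peak centre was a median of 16.7 kb from an end of a Hox gene, against 71.1 kb over the other protein-coding genes. The higher share depended on how peaks were chosen and given to genes. With each peak given only to its nearest protein-coding gene within 100 kb, 9 Hox genes (23.1%) had a peak. The shares were 16.5% of similar genes and 22.6% of all protein-coding genes. This limit is wider than 10 kb, so these shares are not measured as the 33.3% was. With only the peaks at least as wide as the median, 5 Hox genes (12.8%), 10.98% of similar genes and 10.1% of all were near one.

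The higher share was not seen at the gene ends themselves. Within 1 kb of an end, only Hoxb9 had a peak centre, 1 of 39 genes (2.56%, Wilson 95% interval 0.454 to 13.2%) against 6.34% of all protein-coding genes. Within 5 kb the count was 10 of 39 (25.6%) against 11.9%, and within 50 kb it was 34 of 39 (87.2%) against 41.9%. All 39 lay within 100 kb of a peak, as did 58.4% of all protein-coding genes. At these wider windows most genes of a cluster share the same few peaks, so the 39 genes are not independent counts. In HoxD, all 9 genes lay within 50 kb of a peak, with 1 peak inside the cluster and 1 within 50 kb outside it. A peak centre lay inside 5 Hox genes (Hoxa3, Hoxb9, Hoxc6, Hoxc13 and Hoxd11), and 14.6% of all protein-coding genes held one.

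**Figure D3:**
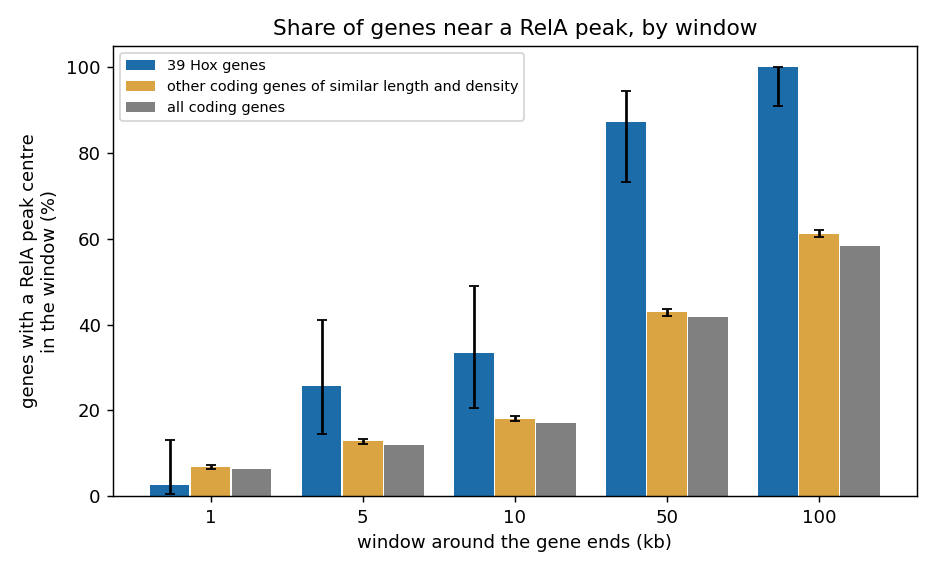
Share (%) of genes with a RelA peak centre within 1, 5, 10, 50 or 100 kb of a gene end, for the 39 Hox genes, other protein-coding genes of similar length and density, and all protein-coding genes. Error bars are Wilson 95% intervals, too narrow for the Hox genes because these share peaks. The Hox share is below the others at 1 kb (2.56% against 6.34% of all genes) and above them from 5 kb on.

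Among the anterior genes, of paralogue groups 1 to 3, 3 of 8 were near a peak. A 722 bp peak on chromosome 6, 52160758 to 52161479, was centred 1.30 kb from Hoxa2, which gives the second branchial arch its identity. The tabled start site of Hoxa2 was 3.71 kb from this centre, at the gene's other end. The same peak lay inside Hotairm1, a long noncoding RNA gene beside Hoxa2, 0.901 kb from its end. A second peak, 739 bp wide at 52172611 to 52173349, lay inside the annotated span of Hoxa3, a gene required for the thymus and parathyroid, 3.92 kb from one end. The tabled start site of Hoxa3 was 40.1 kb from the nearest peak, so this peak is near the gene's far end and not near that start.

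The second HoxA peak covered the whole tabled promoter of the noncoding RNA gene Gm15050, whose start site lay 99 bp from the peak centre. The RefSeq promoter, chr6:52172631-52172930 on the plus strand of GRCm38.p6, is shown because it is 1 of only 2 tabled promoters that lie in a peak of the clusters. Capitals mark a match, on either strand, to a relaxed form of the kappaB site, GGG and CC with any 5 bases between them.
Gm15050 promoter: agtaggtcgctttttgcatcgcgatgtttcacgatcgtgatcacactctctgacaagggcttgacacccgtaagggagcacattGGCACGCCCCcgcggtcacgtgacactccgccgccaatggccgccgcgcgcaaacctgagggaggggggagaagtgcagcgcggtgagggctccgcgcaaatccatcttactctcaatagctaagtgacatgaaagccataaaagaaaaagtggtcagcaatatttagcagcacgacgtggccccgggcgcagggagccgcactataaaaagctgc
It held no match to the stricter kappaB consensus and none to the AP-1 site TGANTCA. It held 2 matches to CCAAT, of which the first overlaps the capitals by 2 bases on the reverse strand.

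The other anterior genes stood farther from peaks. Hoxb1, which specifies facial motor neurons, was 32.7 kb away, Hoxb2 46.9 kb, Hoxb3 34.9 kb, Hoxd1 30.5 kb and Hoxd3 29.7 kb. For Hoxb1, Hoxb2 and Hoxd1 the nearest peak lay outside the cluster.

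Among the central genes, of paralogue groups 4 to 8, 4 of 15 were near a peak, 3 of them in HoxC. Hoxc6, which acts in the lower neck, the thorax and the forelimb, held 2 peaks, at 103000120 to 103000717 (598 bp) and 103005609 to 103006256 (648 bp) on chromosome 15. Their centres were 2.19 and 5.95 kb from the nearest end of Hoxc6. Hoxc8, a gene of the thoracic skeleton and forelimb motor neurons, was 6.14 kb from the first, and Hoxc5 was 8.08 kb from the second. Hoxb8, whose forced expression keeps myeloid progenitors from maturing, was 7.24 kb from the peak in Hoxb9, while its tabled start site was 9.75 kb from it. No gene of paralogue group 4 or 7 was within 10 kb. The distances were 12.2 kb for Hoxc4, 16.7 kb for Hoxa4, 39.7 kb for Hoxd4 and 46.1 kb for Hoxb4 in group 4, and 13.4 kb for Hoxb7 and 42.6 kb for Hoxa7 in group 7. The other central genes, Hoxb6, Hoxd8, Hoxa5, Hoxb5 and Hoxa6, lay between 20.7 and 31.9 kb from a peak.

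Among the posterior genes, of paralogue groups 9 to 13, 6 of 16 were near a peak, 1 in HoxB, 2 in HoxC and 3 in HoxD. Hoxb9, a gene of the thoracic vertebrae and ribs, had the closest peak of all members, centred 0.83 kb inside the gene from its lower end. This peak, at 96271609 to 96272711 on chromosome 11, was 1103 bp wide and wider than 95.1% of all peaks. Hoxc13, needed for hair and nails, held a 497 bp peak at 102927526 to 102928022 on chromosome 15, 1.04 kb from the end that faces Hoxc12. A 611 bp peak at 102943047 to 102943657 lay between Hoxc12 (4.74 kb) and the noncoding RNA gene Hotair, whose end was 0.71 kb away. Hotair RNA has been linked, in human cells, to Polycomb recruitment at the HOXD cluster. Apart from the Hoxb9 peak, the peaks inside the clusters were 497 to 739 bp wide, and the median of all 8 was 630 bp, against 687 bp over the whole list.

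In HoxD a single 505 bp peak, chromosome 2, 74682022 to 74682526, was centred within 10 kb of an end of 3 genes. It lay inside Hoxd11, 2.72 kb from its end, 2.00 kb from the lower end of Hoxd10 and 4.57 kb from Hoxd12. Hoxd11 shapes the forearm together with Hoxa11, Hoxd10 acts in the lumbar spinal cord and limb, and Hoxd12 acts in the digits. Hoxd11 has a pair of tabled start sites, and the peak centre was 0.049 kb from the inner one and 2.72 kb from the outer one. The tabled start site of Hoxd10 was 9.62 kb away. The next gene, Hoxd13, which patterns the digits, lay just outside the window at 10.7 kb.

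The peak covered the whole promoter window of the inner Hoxd11 start, chr2:74682073-74682372 on the plus strand of GRCm38.p6 (RefSeq). The sequence is shown as the only tabled Hox promoter that lies in a RelA peak. Capitals again mark matches to the relaxed kappaB form on either strand.
Hoxd11 inner promoter: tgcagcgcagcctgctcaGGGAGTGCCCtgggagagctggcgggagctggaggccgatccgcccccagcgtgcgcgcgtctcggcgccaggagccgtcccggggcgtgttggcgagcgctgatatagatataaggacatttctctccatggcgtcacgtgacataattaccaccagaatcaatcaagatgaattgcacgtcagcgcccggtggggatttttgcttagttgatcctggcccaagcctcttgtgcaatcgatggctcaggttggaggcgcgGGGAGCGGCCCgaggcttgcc
It held 3 such matches, of which the last pair overlap in 1 run of capitals, and none to the stricter kappaB consensus, to TGANTCA or to CCAAT. It held 1 match to TGATNNAT, a composite site of HOX and PBX proteins, starting 73 bases before the start site. Among all 32851 tabled promoters of this length, 50.8% held the relaxed kappaB form, 8.46% the kappaB consensus, 7.81% TGANTCA, 37.4% CCAAT and 8.85% TGATNNAT. Of the 24 tabled promoters of 22 Hox genes, 15 held the relaxed form, 1 (Hoxa13) the consensus, 1 (the outer Hoxd11 promoter) TGANTCA, 15 CCAAT and 4 TGATNNAT. The 300 bases shown for Hoxd11 were 62% G and C with 25 CpG pairs, against medians of 57.7% and 14.5 over the Hox promoters and 52.7% and 7 over all promoters. By start site instead of gene end, 1 of these 22 Hox genes (Hoxd11) had a peak centre within 1 kb and 5 within 10 kb. The share by start site over all tabled promoters was not computed, so these counts cannot be called high or low.

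The remaining posterior genes of HoxA and HoxB were the farthest from any peak. Hoxa9, which acts in blood stem cells, was at 50.1 kb, Hoxa10 at 58.2 kb, Hoxa11 at 69.1 kb and Hoxa13, a gene of the digits and genital tract, at 85.9 kb. Hoxb13, a gene of the tail and prostate that lies apart from the rest of its cluster, was at 75.6 kb. Within HoxC, Hoxc11, Hoxc9 and Hoxc10 were at 11.2, 16.0 and 23.4 kb, and in HoxD, Hoxd9 was at 15.5 kb. The members just inside and just outside the 10 kb window were Hoxc5 at 8.08 kb and Hoxd13 at 10.7 kb. The 26 genes outside the window ranged from 10.7 to 85.9 kb.

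**Figure D4:**
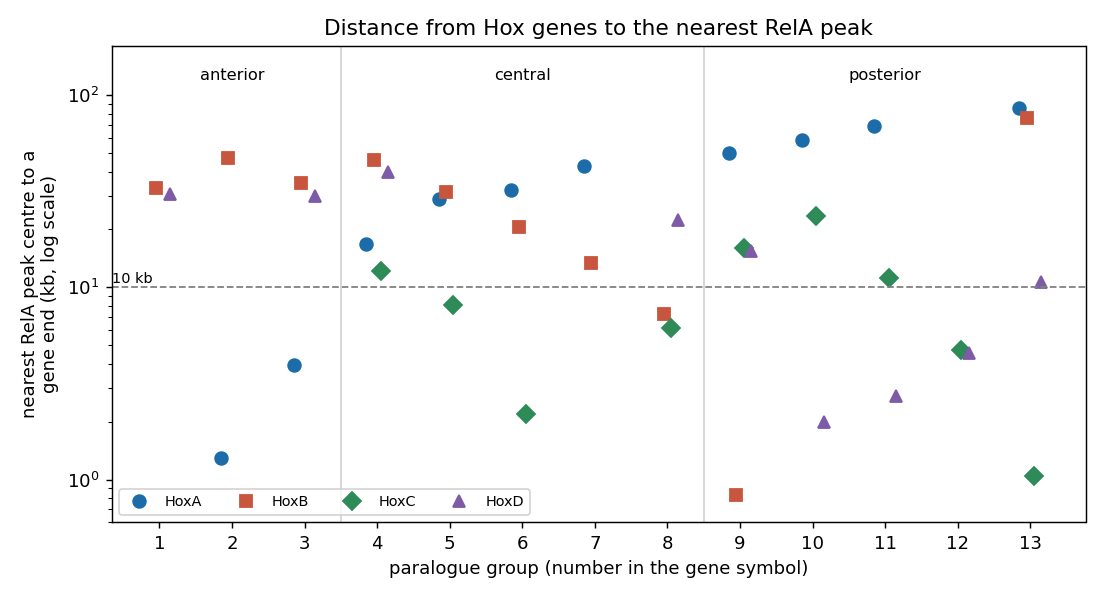
Distance (kb, log scale) from the nearer end of each Hox gene to the nearest RelA peak centre, by paralogue group and cluster (1 gene is not drawn). The dashed line marks 10 kb. HoxA distances rise from 1.30 kb at Hoxa2 to 85.9 kb at Hoxa13, while the lowest HoxC and HoxD values are at groups 6 and 13 and at groups 10 to 12.

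The clusters had their peaks at different positions. In HoxA the longest stretch without a peak centre ran for 87.9 kb to the Hoxa13 end and contained Hoxa4 to Hoxa13 whole. In HoxB the stretch ran for 96.1 kb from the Hoxb9 peak to Hoxb1, and in HoxD for 82.9 kb from the Hoxd11 peak to Hoxd1. HoxC had the shortest, 57.1 kb, with Hoxc11 to Hoxc8 whole inside it. Paralogues were near a peak together in groups 8 (Hoxb8 and Hoxc8) and 12 (Hoxc12 and Hoxd12), and in 9 other groups a single gene was. The medians by position were 30.1 kb for the anterior, 20.7 kb for the central and 13.3 kb for the posterior genes, with ranges that overlapped and reached 46.9, 46.1 and 85.9 kb. Neighbours share peaks, so the positions were not tested against each other.

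Of the 31 noncoding genes and pseudogenes inside the clusters, 12 were within 10 kb of a peak centre, beside 11% of all genes of the table that are not protein-coding. These 12 share peaks with each other and with the Hox genes, so they add no separate evidence. Crowding of genes was not allowed for in this comparison. Next to Hotairm1 and Gm15050, the HoxA peaks were near Hotairm2 (2.59 kb), Hoxaas2 (3.53 kb), LOC115490409 (2.20 kb) and 5730596B20Rik (4.17 kb). Near the Hoxb9 peak were Gm51876 (3.11 kb) and Gm53 (7.68 kb), and near the first Hoxc6 peak was Gm29905 (2.25 kb). The remaining 2 were microRNA genes, out of 6 in the clusters. Mir196a-1, next to Hoxb9, was 6.90 kb from its peak, and Mir615, inside Hoxc5, was 8.98 kb from the second Hoxc6 peak. Mir196a-2, Mir10b, Mir10a and Mir196b were 26.98, 43.8, 45.0 and 57.1 kb away.

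The mature microRNAs are shown because those of the 196 and 10 families recur across clusters with shared seeds, while only 1 locus of the 196 family was near a peak. Capitals mark the seed, bases 2 to 8, and the sequences are from RefSeq.
mmu-miR-196a-5p: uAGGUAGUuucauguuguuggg
mmu-miR-196b-5p: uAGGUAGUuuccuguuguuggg
mmu-miR-10a-5p: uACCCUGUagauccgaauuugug
mmu-miR-10b-5p: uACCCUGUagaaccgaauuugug
mmu-miR-615-3p: uCCGAGCCugggucucccucuu
Mir196a-1 in HoxB and Mir196a-2 in HoxC encode the same miR-196a-5p, known to direct cleavage of Hoxb8 RNA in mouse embryos. The Hoxb9 peak was within 10 kb of both Mir196a-1 and Hoxb8.

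No peak centre lay in the first 10 kb outside any cluster, and 3 lay between 10 and 50 kb. Over the whole 50 kb flanks this made 7.50 per Mb (95% interval 1.55 to 21.9). The density was 6.67 per Mb between 50 and 500 kb outside the clusters and 3.82 over all chromosomes. The flank counts are thus too few to be called high or low. All 3 peaks within 50 kb were on the side of the lowest paralogue number. In HoxB they were at 96400615 to 96401255 and 96413417 to 96414392, 32.7 and 45.7 kb beyond Hoxb1. In HoxD the peak at 74795327 to 74795989 was 30.5 kb beyond Hoxd1 and 30.2 kb from Mtx2. Of the first protein-coding genes beyond the clusters, Mtx2, a mitochondrial import gene next to HoxD, was the only one with a peak centre within 10 kb (0.308 kb). Evx2, a homeobox gene at the other side of HoxD, was 20.8 kb away and Evx1, beside HoxA, 92.9 kb. The other neighbours were Smug1 (24.3 kb) and Calcoco1 (35.04 kb) at HoxC, Skap2 at HoxA (45.7 kb), and Skap1 (50.7 kb) and Ttll6 (65.9 kb) at HoxB.

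Genes that work with or on Hox genes were then counted in the same way, each list beside the 17.1% of all protein-coding genes. Distances were again to the nearer gene end. Start sites were not looked up for any of these lists, so a close peak may lie at either end of a gene. Among the TALE homeodomain genes, whose proteins bind DNA together with HOX proteins, 4 of 9 stood near a peak, with a Wilson 95% interval of 18.9 to 73.3%. The closest were Meis1 (2.13 kb), Pknox2 (3.86 kb, 4 peaks inside the gene) and Pbx4 (5.09 kb). Among trithorax and MLL complex genes, which keep Hox genes active, 7 of 12 were near a peak (32.0 to 80.7%). Of these, 5 were within 1 kb, where the share of all protein-coding genes was 6.34%. Men1, the menin gene, was at 0.018 kb, the histone methyltransferase gene Dot1l at 0.116 kb and Kmt2b at 0.433 kb. The Polycomb list had 6 of its 20 genes near a peak (14.5 to 51.9%). Suz12, a core subunit of the complex that methylates lysine on histone H3, was at 0.267 kb, and the chromobox gene Cbx6 at 0.385 kb.

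Among the CDX and retinoic acid genes, listed as regulators of Hox genes, 5 of 14 were near a peak (16.3 to 61.2%). The closest were the receptor genes Rarb (2.62 kb) and Rxra (4.58 kb) and the retinoic acid degrading enzyme gene Cyp26b1 (6.22 kb). None of the 8 even-skipped and ParaHox genes, the nearest relatives of the Hox genes, was within 10 kb, a count whose interval reaches 32.4%. This list shares Cdx1, Cdx2 and Cdx4 with the previous one. Of 70 genes of other homeobox families, 9 had a peak nearby (12.9%, Wilson 95% interval 6.91 to 22.7%). They included Zeb1, a repressor of epithelial genes (0.051 kb), Prrx1, a limb mesenchyme factor (0.233 kb), and Six5 (0.285 kb). The intervals of the Hox genes and of the other homeobox genes overlapped, and the lists were not tested against each other.

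**Figure D5:**
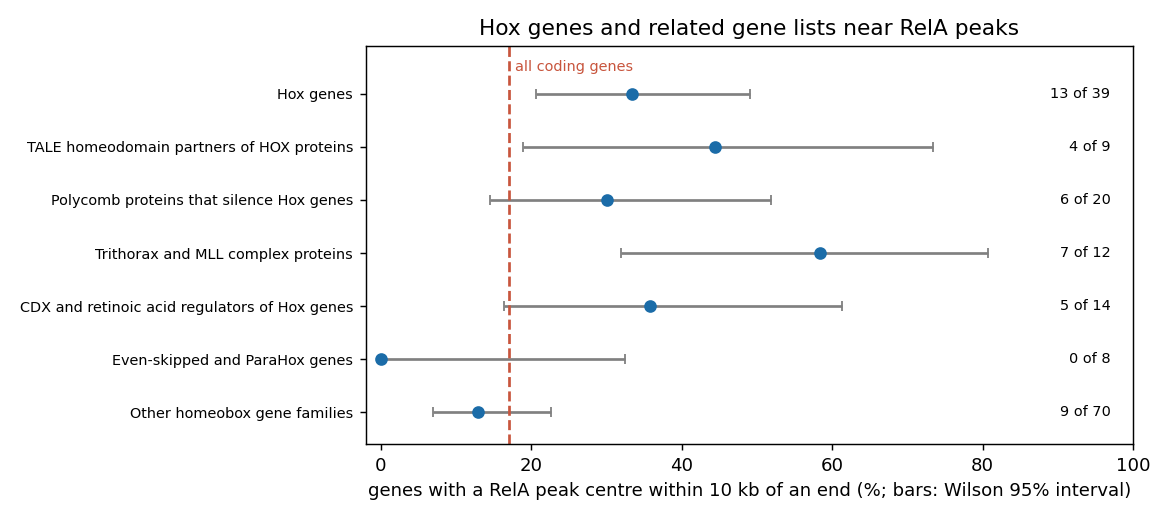
Share (%) of genes with a RelA peak centre within 10 kb of an end in the Hox genes and in 6 related lists, with the counts at the right. Points are shares, bars Wilson 95% intervals, and the dashed line is the 17.1% of all protein-coding genes. Other homeobox families (9 of 70) and even-skipped and ParaHox genes (0 of 8) lie below the line.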

How the data were processed

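RelA ChIP-seq libraries at 0, 0.5 and 3 h of TNF and input DNA libraries, 2 of each, came from primary mouse embryonic fibroblasts. Cells were fixed with disuccinimidyl glutarate followed by formaldehyde, per the labels' protocols, and such fixation can also retain RelA held through other proteins. The genome was mm10 and the tools were MACS2, deepTools, Picard 1.13, SAMtools, Bowtie2 2.3 and cutadapt 1.9.1, per the submitters' processing notes. The deposited list has, for the whole series, only the position of each peak in base pairs. Not given in the sources used here is how peaks were thresholded, whether input was used and whether libraries were pooled.

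Starts were converted to positions counted from 1, and 6 peaks on unplaced contigs were left out. Gene positions, promoters and microRNAs came from RefSeq tables of GRCm38.p6 (the mm10 assembly), without 345 genes placed on scaffolds. Promoter windows ran from 250 bases before to 50 bases after a start site. Of the 39 Hox genes, 22 had a tabled promoter. The distance of a gene is from a peak centre to its nearer end. Intervals for counts were exact Poisson, and those for shares Wilson, from scipy 1.17.1. The distance code was tested on simulated data.

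The members, lists and comparisons were chosen with earlier results of these data known, so no list was tested for enrichment. The rule for named genes covered all members, the first coding gene beyond each cluster, noncoding cluster genes within 10 kb of a peak, and the 3 closest genes of each related list. The other microRNA genes, D930007P13Rik and 2600014E21Rik lie outside this rule and were named after their values were seen. A member and a gene of a related list are counted but not reported here. The genes of similar length and density, and the runs of 9 genes, include every gene or run in the stated range. The alternatives changed the window, the peaks used, how a peak was given to a gene, the flanks and the runs. The nearest coding gene was sought within 100 kb, and peaks within 1 kb of each other were merged.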

Additional observations from a re-analysis of the deposited data

How the results depend on the processing

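No paired analysis was possible because the peak list carries no values per sample, and for the same reason no library could be left out. Depth is unknown. With the window at 1, 50 and 100 kb, 1, 34 and 39 Hox genes were near a peak, beside 6.88, 42.9 and 61.2% of genes of similar length and density. Of the 130 distinct related genes, 12, 61 and 78 were near a peak at these windows, and 31 at 10 kb. The shares of all protein-coding genes were 6.34, 41.9 and 58.4%, and 17.1% at 10 kb. At 5 kb the share of similar genes was 12.8%. With peaks at least as wide as the median only, 5 Hox genes (12.8%), 16 related genes, 10.98% of similar genes and 10.1% of all protein-coding genes were near a peak, and 3 peaks remained in the clusters. Counting peaks inside genes left 13 Hox genes (33.3%), beside 18.8% of similar genes and 23.1% of all. With the nearest coding gene within 100 kb only, 9 Hox genes (23.1%) had a peak, beside 16.5% of similar genes and 22.6% of all. The Hox share was then close to that of all genes and above that of similar genes. Genes that share their nearest peak, counted once in an alternative chosen after seeing the data, gave 8 in place of 13. Flanks of 100, 250 and 500 kb held 9, 18 and 27 peaks, against 3 at 50 kb. Runs of 11 genes held 2 or more peaks in 26.9% of cases, and runs of 9 genes within the range of cluster lengths in 25.8%. Counting any overlap of a peak, or merging close peaks, left 13 Hox genes near a peak and 8 peaks in the clusters. For the single related lists, 20 of 54 alternative counts differed from the 10 kb count by more than 1.5 times, 12 upwards and 8 downwards.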

Other observations

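Farther from the clusters the peaks were unevenly placed, a pattern noticed after the values were seen and not tested. Within 500 kb of the outer Hox gene ends, 19 peak centres lay on the side of the lowest paralogue number and 8 on the side of paralogue 13. By cluster the counts were 2 and 2 at HoxA, 4 and 2 at HoxB, 5 and 2 at HoxC, and 8 and 2 at HoxD. At HoxC, peaks of 1029 and 1181 bp lay 78.7 and 92.2 kb beyond Hoxc4, the second inside the noncoding RNA gene D930007P13Rik. At HoxD, the Mtx2 peak and 4 peaks inside the noncoding RNA gene 2600014E21Rik were among the 8. Gene content differs between the sides and was not allowed for.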
